A study of Arabidopsis thaliana with 9 samples.

Results

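The genes described here are 6 auxin genes of Arabidopsis thaliana: IAA29 and HAT2, which encode auxin response regulators, and WES1 (GH3.5), GH3.1, GH3.3 and IAGLU, which encode enzymes that attach amino acids or glucose to auxin. They were chosen by name from earlier results of the same arrays, and IAA29, WES1 and IAGLU were named there for how they differed between groups. Their values are therefore given as a description, with no p-value. Each gene has 1 probe set annotated to it alone, so they make up 6 of the 13356 genes that could be named one to one and 6 of the 22746 probe sets tested.

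Rosette leaves of the Columbia background were profiled on Affymetrix ATH1 arrays in 3 groups of 3 arrays. All plants carried GVG, a steroid-activated transcription factor construct that switches on a target sequence when dexamethasone (dex) is given. DVL4 dex leaves came from a line with the DVL4 coding sequence under GVG control, treated with dex at 30 (unit written as um). EV dex leaves came from an empty vector line with no coding sequence inserted, given the same treatment, and DVL4 mock leaves came from the DVL4 line after mock treatment. Leaves were harvested 10 h after treatment at the stage of 6 rosette leaves from plants kept at 22 °C with 16 h days, and a replicate was the largest leaf of 20 plants, pooled. The sources used here give neither plant age in days nor the clock hour of harvest. DVL4 belongs to a family of small peptides whose overexpression changes organ shape. There was no mock-treated empty vector group, so line and dex cannot be told apart in a difference between EV dex and DVL4 mock leaves. Nor can they be told apart from anything else that differed between these groups, such as the RNA control signals described below. Each transgene is represented by a single line. The DVL4 transcript was not checked here, since its probe set is unnamed in the gene table used.

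Auxin (indole-3-acetic acid, IAA) acts through TIR1/AFB receptors, which mark Aux/IAA repressor proteins for degradation and so release ARF transcription factors from repression. Many Aux/IAA and GH3 genes are themselves switched on by auxin within minutes to hours. GH3 enzymes join IAA to amino acids and UDP-glucosyltransferases join it to glucose, and both reactions lower the pool of free hormone. Growing leaves use this pathway for cell expansion and vein formation, and in shade or warmth PIF transcription factors raise auxin synthesis and some auxin-responsive genes, IAA29 and HAT2 among them.

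Intensities are on the linear scale of the deposited table, and array medians ran from 75.4 to 84.1. Values under 4.92 (the 5th percentile of all values) were raised to it before log2 was taken. Log2 differences carry standard errors from a limma fit of all 9 arrays, and a probe set is said to pass when its Benjamini-Hochberg adjusted p over the 22746 probe sets is under 0.05. The 3 comparisons share arrays in pairs and are not independent. The labels call the 3 samples of a group biological replicates. Limma p-values set a group difference against the spread between such pools, estimated over all 3 groups and drawn toward that of other probe sets. In pooled leaves, fewer cells of a type and less RNA per cell cannot be told apart.

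The arrays differed in the 5′ signal of a control transcript (dap). In DVL4 dex replicates 1 and 2 and EV dex replicate 1 the ratio of its 5′ to 3′ signal was 0.228 to 0.278, against 0.601 to 1.33 on the other 6 arrays. The arrays of low 5′ signal were therefore spread unevenly over the groups, with 2 in DVL4 dex, 1 in EV dex and 0 in DVL4 mock. Plant control transcripts also differed by group. The ratio of 5′ to 3′ signal for actin was 0.226 to 0.538 in DVL4 dex, 0.279 to 0.58 in EV dex and 0.595 to 0.612 in DVL4 mock leaves, and that of one GAPDH probe pair was 0.171 to 0.39, 0.21 to 0.419 and 0.475 to 0.574 in the same order. All DVL4 mock arrays thus lay above all dex arrays for both, including the dex arrays of high dap signal. A second GAPDH pair and a ubiquitin pair overlapped between groups. For another ubiquitin pair the ratio was 1.02 to 1.12 in DVL4 dex, 1.05 to 1.25 in EV dex and 1.16 to 1.24 in DVL4 mock leaves. There all DVL4 mock arrays lay above all DVL4 dex arrays, and EV dex overlapped with both. The part of this in the comparisons with DVL4 mock was not tested, and no split of the arrays by dap removes it. Of 15 leaf markers listed, 4 were measured (RCA, PRK, LHCB4.1 and SBPASE), and their summed intensity was 31482 to 34023 in DVL4 dex, 32964 to 35494 in EV dex and 34585 to 37367 in DVL4 mock leaves. SBPASE, a Calvin cycle phosphatase, was lower in DVL4 dex than in DVL4 mock leaves (-0.22 ± 0.06, limma adjusted p = 0.0355), and the other 3 leaf markers did not pass. The 3 measured root markers summed to 79.1 to 113 in DVL4 dex, 66.7 to 112 in EV dex and 69.5 to 100.3 in DVL4 mock leaves. One of them, the root hair expansin gene EXPA7, was higher in DVL4 dex than in DVL4 mock leaves (1.03 ± 0.30, limma adjusted p = 0.0326). The others, PYK10 (-0.39 ± 0.40) and EXPA18 (0.18 ± 0.27), did not pass in that comparison. The stem cell marker CLV3 stayed between 1.56 and 14.4 on all arrays, and neither of the 2 flower and pollen markers passed in any comparison.

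**Figure D1:**
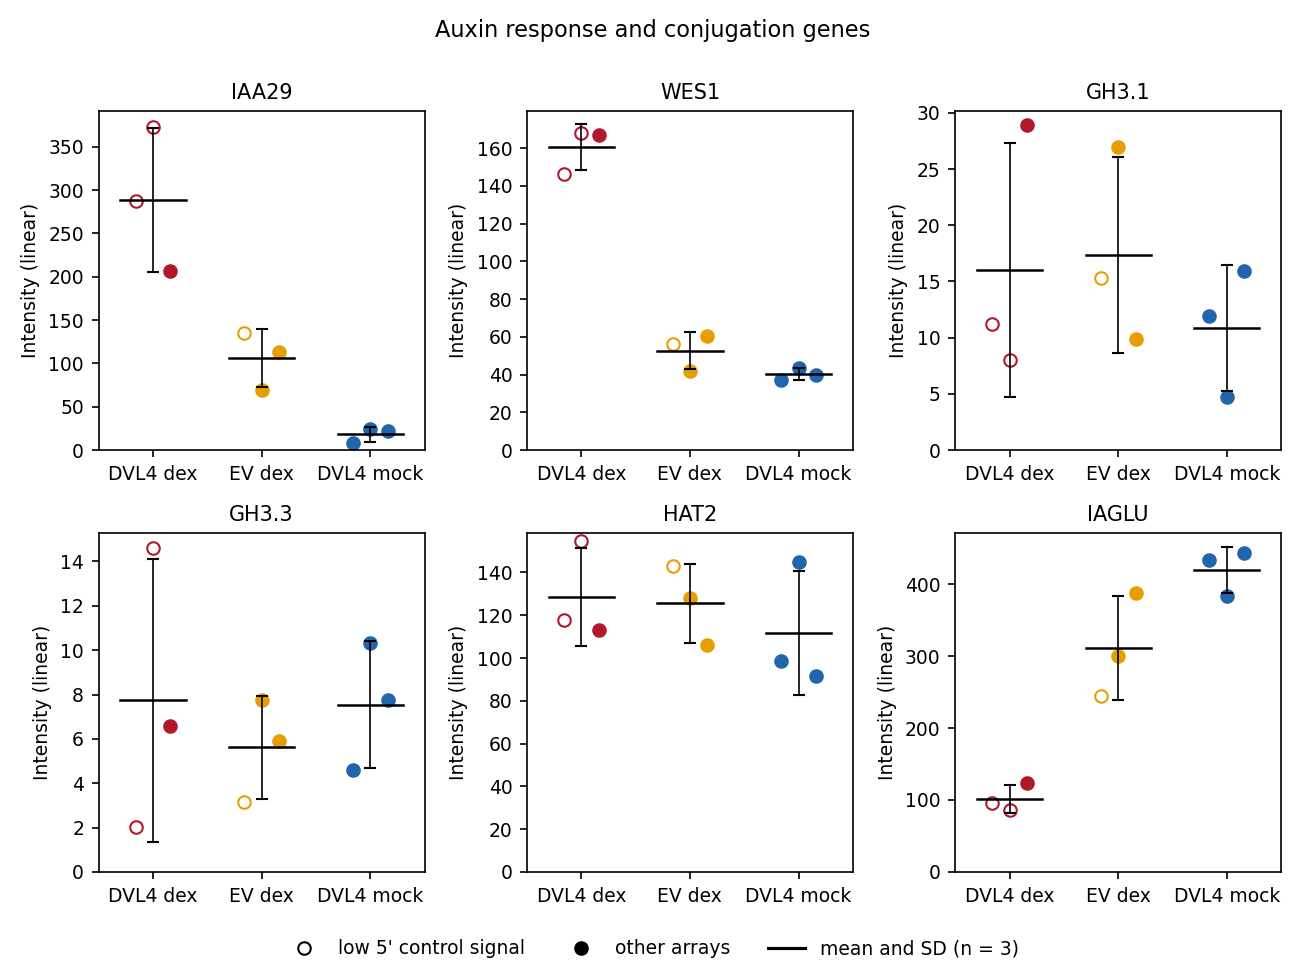
Intensity (linear scale, each panel with its own axis from 0) of the 6 genes on each array, for DVL4 dex, EV dex and DVL4 mock leaves. Points are arrays, open where the 5′ control signal was low, and bars are the mean and SD of 3 arrays. IAA29 and WES1 sit highest and IAGLU lowest in DVL4 dex leaves, while the groups overlap for GH3.1, GH3.3 and HAT2.

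IAA29 encodes an Aux/IAA repressor that is induced by auxin and by PIF factors. On the 3 arrays of DVL4 dex leaves (locus AT4G32280) it had intensities of 288, 372.5 and 206, against 135, 69.5 and 114 in EV dex leaves and 7.88, 24.8 and 21.7 in DVL4 mock leaves. The 3 groups did not overlap, and their order was DVL4 dex, then EV dex, then DVL4 mock. The means were 289 ± 83.1, 106 ± 33.4 and 18.1 ± 9.02 in the same order (SD, n = 3 each). On the log2 scale DVL4 dex leaves exceeded EV dex leaves by 1.46 ± 0.43 and DVL4 mock leaves by 4.11 ± 0.43. EV dex leaves exceeded DVL4 mock leaves by 2.66 ± 0.43, and neither of these groups was the DVL4 line given dex. Among all probe sets, the IAA29 difference ranked 20th from the top in DVL4 dex against DVL4 mock, 86th in DVL4 dex against EV dex and 31st in EV dex against DVL4 mock.

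In both dex groups the arrays of low 5′ signal had the highest IAA29 values. Among the arrays of high signal, which leave 1 DVL4 dex array, the DVL4 dex value was higher by 1.22 than in EV dex and by 3.67 than in DVL4 mock leaves. Among the arrays of low signal it was higher by 1.28 than in EV dex. The direction against EV dex was thus the same within each kind of array. The arrays of low signal held 1 from EV dex and none from DVL4 mock, and the part of 5′ signal was not tested. With every value under the 25th percentile (20.1) raised to it, which affects 1 DVL4 mock array, the difference from DVL4 mock was 3.67.

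HAT2 encodes an HD-Zip class II transcription factor known as an early auxin-induced gene. Its intensity (AT5G47370) was 118, 155 and 113 in DVL4 dex, 143, 128 and 106 in EV dex, and 98.4, 145 and 91.5 in DVL4 mock leaves. All 3 groups overlapped. The log2 difference was 0.03 ± 0.20 between DVL4 dex and EV dex, 0.22 ± 0.20 between DVL4 dex and DVL4 mock and 0.19 ± 0.20 between EV dex and DVL4 mock.

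WES1 encodes the GH3.5 enzyme, which conjugates IAA to amino acids such as aspartate and also acts on salicylic acid. Its intensity (AT4G27260) was 146, 168 and 167 in DVL4 dex, 55.9, 41.8 and 60.5 in EV dex, and 37.1, 43.6 and 39.7 in DVL4 mock leaves. Every DVL4 dex array lay above every array of both controls, and the controls overlapped. The mean was 160.5 ± 12.2 in DVL4 dex, 52.7 ± 9.72 in EV dex and 40.1 ± 3.24 in DVL4 mock leaves (SD, n = 3 each). On the log2 scale DVL4 dex leaves were higher by 1.62 ± 0.17 than EV dex and by 2.0 ± 0.17 than DVL4 mock leaves, and EV dex leaves differed from DVL4 mock leaves by 0.38 ± 0.17. Its difference ranked 60th from the top of all probe sets in DVL4 dex against EV dex and 171st in DVL4 dex against DVL4 mock. In the DVL4 dex group the arrays of low 5′ signal held both the lowest and the highest WES1 value, and in the EV dex group the middle one. Against EV dex it was higher by 1.73 among the arrays of high signal and by 1.49 among those of low signal.

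GH3.1 and GH3.3 encode auxin-inducible members of the same enzyme family, and both had low intensities throughout. GH3.1 (AT2G14960) had 11.2, 8.00 and 28.9 in DVL4 dex, 15.3, 27.0 and 9.92 in EV dex, and 11.9, 4.76 and 15.9 in DVL4 mock leaves. GH3.3 (AT2G23170) had 2.03, 14.6 and 6.57 in DVL4 dex, 3.2, 7.77 and 5.91 in EV dex, and 4.57, 10.3 and 7.74 in DVL4 mock leaves. All groups overlapped for both genes. All 9 values of GH3.3 lay under the 25th percentile of the data, as did 7 of the 9 values of GH3.1. The log2 differences of GH3.1 were -0.22 ± 0.58 in DVL4 dex against EV dex and 0.49 ± 0.58 in DVL4 dex against DVL4 mock, and those of GH3.3 were 0.35 ± 0.43 and 0.09 ± 0.43 in the same comparisons. At these intensities the standard errors were larger than the 0.17 of WES1, so small changes were not resolved.

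**Figure D2:**
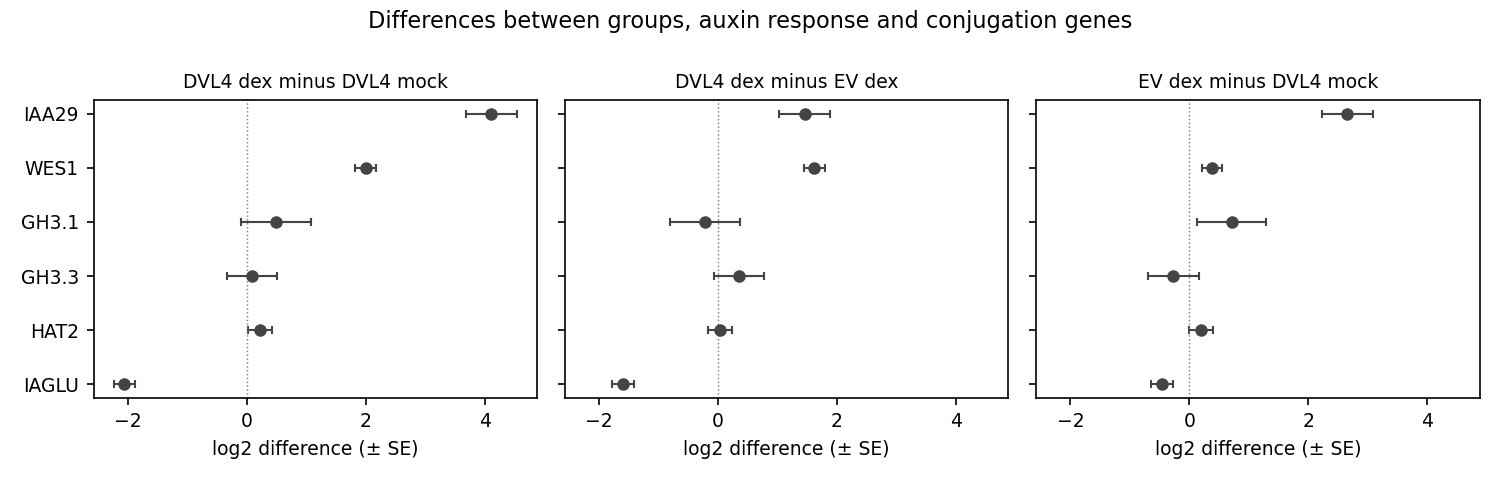
Log2 difference in intensity between groups for the 6 genes, with 1 panel per comparison; bars are standard errors from the limma fit of 9 arrays. IAA29 reaches 4.11 and WES1 2.0 in DVL4 dex against DVL4 mock leaves, IAGLU -2.06, and the other 3 genes lie between -0.27 and 0.71 in every panel.

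IAGLU encodes a UDP-glucosyltransferase that was named for attaching glucose to IAA. It ran opposite to WES1. Its intensity (AT4G15550) was 95.8, 86.2 and 123 in DVL4 dex, 245, 300.2 and 388 in EV dex, and 433, 383 and 443 in DVL4 mock leaves. All DVL4 dex arrays lay below all arrays of both controls, and the brightest EV dex array lay just above the dimmest DVL4 mock array. The means were 102 ± 19.2 in DVL4 dex, 311 ± 72.2 in EV dex and 420 ± 32.2 in DVL4 mock leaves (SD, n = 3 each). The log2 difference was -1.60 ± 0.18 in DVL4 dex against EV dex, -2.06 ± 0.18 in DVL4 dex against DVL4 mock and -0.46 ± 0.18 in EV dex against DVL4 mock. From the bottom of all probe sets these differences ranked 80th in DVL4 dex against EV dex and 47th in DVL4 dex against DVL4 mock.

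In both dex groups the arrays of low 5′ signal had the lowest IAGLU values. Among the arrays of high signal DVL4 dex was at -1.47 against EV dex and at -1.77 against DVL4 mock, and among those of low signal at -1.43 against EV dex. With low 5′ signal as a covariate the log2 differences were -1.45 and -1.75. IAGLU was thus lower in DVL4 dex than in EV dex leaves within both kinds of array, by somewhat less than over all arrays. The arrays of high signal held 1 from DVL4 dex, and those of low signal 1 from EV dex and none from DVL4 mock. The part of 5′ signal in these differences was not tested.

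Counted over the 6 genes, the limma threshold was passed by 2 higher (IAA29, WES1) and 1 lower (IAGLU) in DVL4 dex against DVL4 mock, by 1 higher (WES1) and 1 lower (IAGLU) in DVL4 dex against EV dex, and by 1 higher (IAA29) and 0 lower in EV dex against DVL4 mock. Over all probe sets 12.8% passed higher and 10.9% lower in DVL4 dex against DVL4 mock, 4.63% and 5.55% in DVL4 dex against EV dex, and 4.15% and 2.06% in EV dex against DVL4 mock. The genes were selected on these contrasts, so nothing is read from the counts. IAA29 did not pass in DVL4 dex against EV dex although its arrays did not overlap. The arrays of 2 groups did not overlap, with the first higher, for 23.2% of all probe sets in DVL4 dex against DVL4 mock, 12.1% in DVL4 dex against EV dex and 14.7% in EV dex against DVL4 mock, and with the first lower for 20.1%, 13.0% and 11.9% in the same comparisons.

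The other auxin genes were described from 11 lists covering synthesis, transport, perception, repressors, response, conjugation, shade targets and mutants. Most of their 350 distinct entries matched no probe set named for 1 gene alone in the gene table used, and why was not examined. Measured were 0 of 30 entries for ARF factors and their co-repressor, 1 of 29 for transport and 3 of 104 for early response. In all, 23 genes besides the 6 could be measured, and they do not stand for the pathway. In DVL4 dex against DVL4 mock leaves 2 of the 23 rose, 1 fell and 20 did not pass, and 6 had an unadjusted limma p under 0.05 (3 higher, 3 lower). Against EV dex 0 rose, 1 fell and 22 did not pass, and 3 had an unadjusted limma p under 0.05 (2 higher, 1 lower). In EV dex against DVL4 mock 1 rose, 0 fell and 22 did not pass, and 5 had an unadjusted limma p under 0.05 (2 higher, 3 lower). The counts past the adjusted threshold are near or below what the shares of all probe sets at that threshold, given above, would give. Over the whole array, an unadjusted limma p under 0.05 with a higher value was found for 18.4% and with a lower value for 16.6% in DVL4 dex against DVL4 mock, 11.4% and 12.5% in DVL4 dex against EV dex, and 12.7% and 8.70% in EV dex against DVL4 mock. The median log2 difference of the 23 genes was -0.14, 0.04 and -0.22 in these comparisons, against 0.01, 0.00 and 0.02 for all probe sets.

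**Figure D3:**
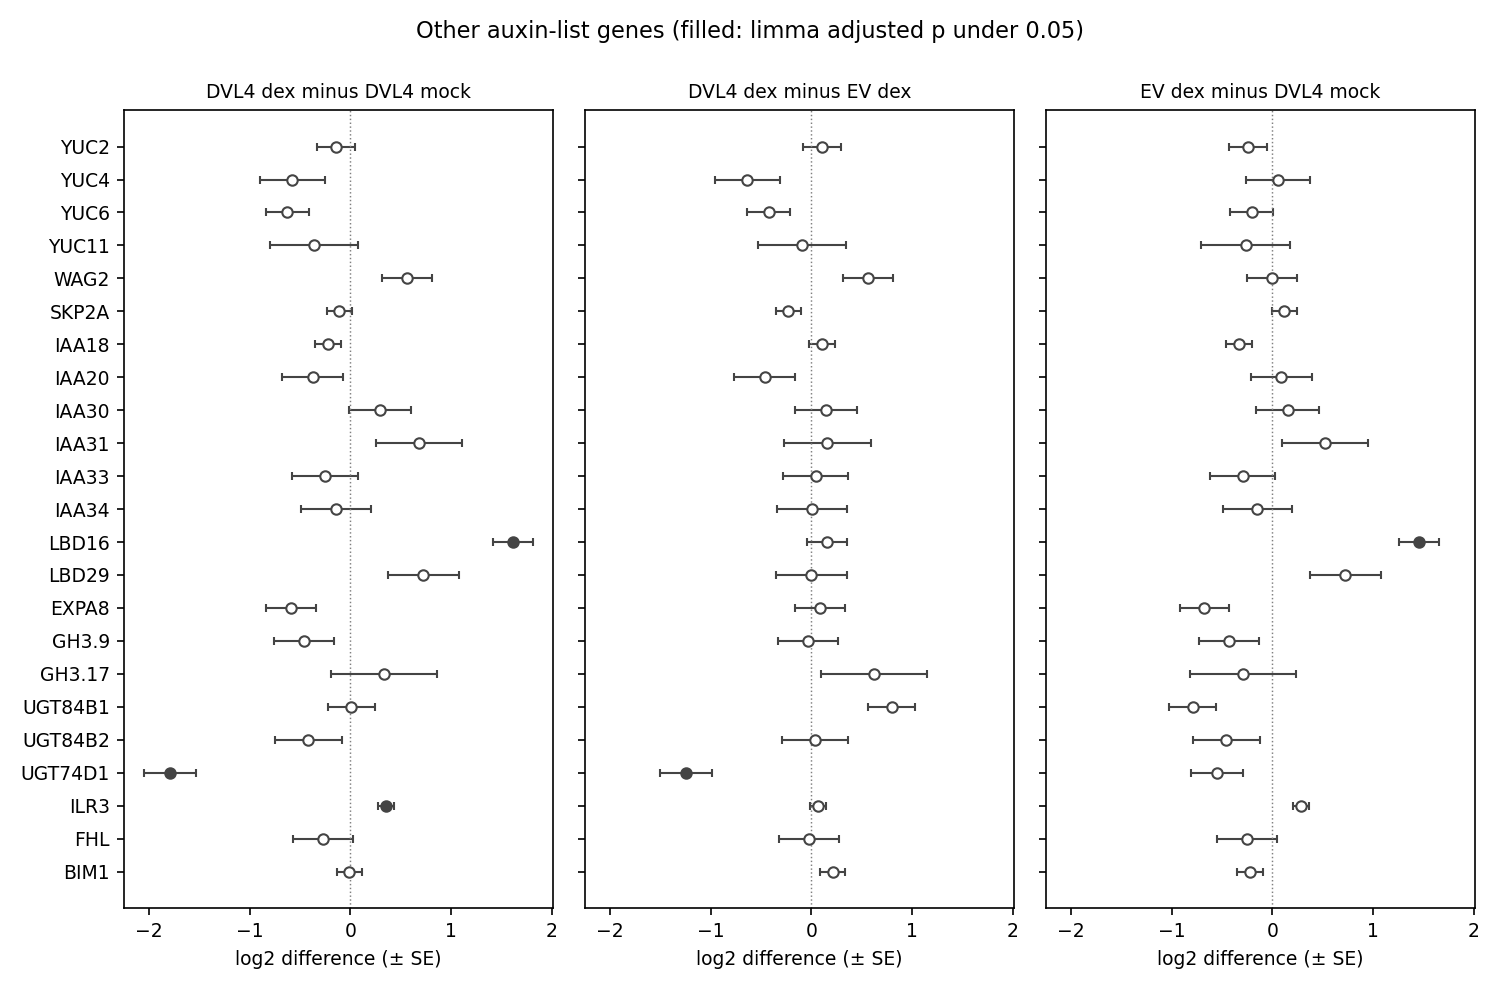
Log2 difference in intensity (± SE from limma) of the 23 other measured auxin-list genes, with 1 panel per comparison; filled points passed the limma threshold. LBD16 is at 1.62 and UGT74D1 at -1.80 in DVL4 dex against DVL4 mock leaves, UGT74D1 alone is filled in DVL4 dex against EV dex, and LBD16 alone in EV dex against DVL4 mock.

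Among the genes of auxin inactivation and release, UGT74D1 fell in DVL4 dex leaves. It encodes another UDP-glucosyltransferase that accepts auxins as substrates. Its intensity (AT2G31750) was 129, 119 and 229 in DVL4 dex, 268, 399 and 442 in EV dex, and 490.3, 494 and 611 in DVL4 mock leaves. No 2 groups overlapped, and the order of the groups was that of IAGLU. The log2 difference was -1.80 ± 0.26 in DVL4 dex against DVL4 mock (limma adjusted p = 0.00095), -1.25 ± 0.26 in DVL4 dex against EV dex (limma adjusted p = 0.0148) and -0.55 ± 0.26 in EV dex against DVL4 mock (limma adjusted p = 0.256). All 3 DVL4 dex arrays were lower than each control array.

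With single arrays left out, UGT74D1 stayed lower in DVL4 dex than in EV dex leaves, by log2 differences from -1.54 to -1.07, but did not always pass. Without DVL4 dex replicate 1 the log2 difference was -1.13 (limma adjusted p = 0.0729), without DVL4 dex replicate 2 it was -1.07 (0.0676), without EV dex replicate 2 it was -1.18 (0.0509) and without EV dex replicate 3 it was -1.10 (0.0603). As for IAGLU, its values were lowest on the arrays of low 5′ signal in each dex group. Among the arrays of high signal the difference was -0.87 from EV dex and -1.21 from DVL4 mock, and among those of low signal -1.11 from EV dex. With low 5′ signal as a covariate it was -0.99 from EV dex (limma adjusted p = 0.00152) and -1.29 from DVL4 mock (limma adjusted p = 0.000473).

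UGT84B1, whose enzyme glucosylates IAA in vitro, showed another pattern. Its intensity (AT2G23260) was 25.4, 43.4 and 31.3 in DVL4 dex, 17.1, 21.5 and 17.8 in EV dex, and 31.2, 31.4 and 34.7 in DVL4 mock leaves. The EV dex arrays were the lowest and did not overlap with either other group, while DVL4 dex and DVL4 mock overlapped. The differences did not pass: 0.80 ± 0.23 in DVL4 dex against EV dex (limma adjusted p = 0.0608), 0.01 ± 0.23 in DVL4 dex against DVL4 mock (limma adjusted p = 0.989) and -0.79 ± 0.23 in EV dex against DVL4 mock (limma adjusted p = 0.0806). Its chromosomal neighbour by locus number, UGT84B2, did not pass either, at 0.04 ± 0.33 against EV dex and -0.42 ± 0.33 against DVL4 mock.

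ILR3 encodes a bHLH factor of iron homeostasis that was found through resistance to an IAA-leucine conjugate. Its intensity (AT5G54680) was 1390, 1422 and 1255 in DVL4 dex, 1375, 1201 and 1306 in EV dex, and 1099.8, 1064 and 1019 in DVL4 mock leaves. Both dex groups lay above DVL4 mock and overlapped with each other. ILR3 rose by 0.35 ± 0.08 in DVL4 dex against DVL4 mock (limma adjusted p = 0.0102), a 1.28-fold difference. It did not pass at 0.28 ± 0.08 in EV dex against DVL4 mock (limma adjusted p = 0.0654), nor at 0.07 ± 0.08 in DVL4 dex against EV dex. Without EV dex replicate 2 the difference of EV dex from DVL4 mock was 0.34 (limma adjusted p = 0.0343). With low 5′ signal as a covariate the difference of DVL4 dex from DVL4 mock was 0.25 (limma adjusted p = 0.0527) and did not pass. Without the arrays of low signal, which left 1 DVL4 dex array, that difference was 0.24.

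Of the GH3 family, GH3.9 and GH3.17 were also measured, and 0 of these 2 genes passed in any comparison. GH3.17, which conjugates IAA to glutamate, had mean intensities of 12.7 ± 5.90 in DVL4 dex, 7.68 ± 2.94 in EV dex and 10.0 ± 5.92 in DVL4 mock leaves. GH3.9 had 26.9 ± 8.11, 26.8 ± 2.0 and 37.4 ± 13.0 in the same order. WES1, which was chosen for its differences between groups, was the single measured GH3 gene of 5 whose arrays separated DVL4 dex from both controls. All values of GH3.3 and GH3.17 and most of GH3.1 lay under the 25th percentile of the data, so nothing is read from this about the family.

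IAA29 was measured beside 6 other Aux/IAA genes: IAA18, IAA20, IAA30, IAA31, IAA33 and IAA34. None of the 6 passed in any comparison, and none had an unadjusted limma p under 0.05 except IAA18 in EV dex against DVL4 mock (-0.33 ± 0.13, limma adjusted p = 0.18). Their log2 differences ran from -0.47 to 0.16 in DVL4 dex against EV dex and from -0.37 to 0.68 in DVL4 dex against DVL4 mock. IAA18, whose mean intensity was 575 ± 77.6 in DVL4 dex, 537 ± 92.4 in EV dex and 668 ± 6.24 in DVL4 mock leaves, had standard errors of 0.13. The other 5 had group means between 7.46 and 21.1, where the standard errors ran from 0.30 to 0.43.

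From the early response list LBD16 passed. It encodes a LOB-domain transcription factor that acts downstream of ARF7 and ARF19 in lateral root formation. Its intensity (AT2G42430) was 63.8, 75.3 and 63.3 in DVL4 dex, 51.7, 72.2 and 58.9 in EV dex, and 18.5, 22.3 and 25.5 in DVL4 mock leaves. Both dex groups lay above DVL4 mock on every array, and overlapped with each other. LBD16 rose by 1.62 ± 0.20 in DVL4 dex against DVL4 mock (limma adjusted p = 0.000422) and by 1.46 ± 0.20 in EV dex against DVL4 mock (limma adjusted p = 0.00405), and it differed by 0.16 ± 0.20 between DVL4 dex and EV dex (limma adjusted p = 0.704). Among the arrays of high 5′ signal the differences were 1.53, 1.57 and -0.04. The root marker EXPA7 was at 1.03 ± 0.30 and 0.75 ± 0.30 in the first 2 of these comparisons. In the same 2, PYK10 was at -0.39 ± 0.40 and -0.55 ± 0.40 and EXPA18 at 0.18 ± 0.27 and 0.09 ± 0.27. The part of these root markers in the values of LBD16 was not tested. The other genes of synthesis, transport, perception, early response and shade did not pass, and their log2 differences lay between -0.68 and 0.73.

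**Figure D4:**
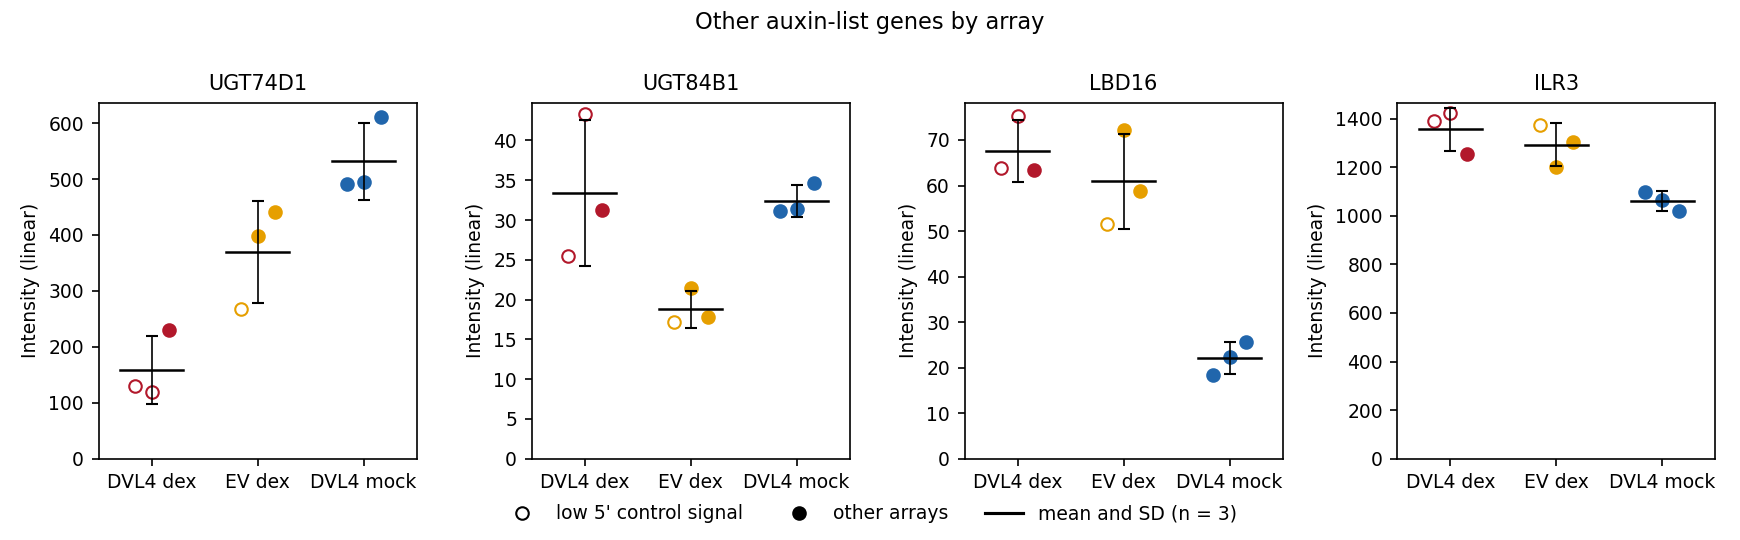
Intensity (linear scale, each panel with its own axis from 0) of UGT74D1, UGT84B1, LBD16 and ILR3 on each array of DVL4 dex, EV dex and DVL4 mock leaves; open points are arrays of low 5′ control signal, bars the mean and SD of 3 arrays. UGT74D1 is lowest in DVL4 dex, UGT84B1 lowest in EV dex, and LBD16 and ILR3 lowest in DVL4 mock leaves.

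Genes with the most similar profile were sought for each of the 6 genes whose group means spanned at least 2-fold, which were IAA29 (15.9-fold), IAGLU (4.13-fold) and WES1 (4.0-fold). Similarity was the root mean square difference between log2 profiles centred on their mean over the 9 arrays, among 6020 candidate genes. For IAGLU the closest was HYH, the bZIP factor gene related to the light regulator HY5, with a root mean square difference of 0.13. HYH had mean intensities of 45.9 ± 9.12 in DVL4 dex, 130 ± 14.2 in EV dex and 180 ± 20.1 in DVL4 mock leaves (SD, n = 3 each). AT5G17700 followed at 0.18 and UGT74D1 at 0.22, so the probe set of the other auxin glucosyltransferase gene that was lower in DVL4 dex leaves was the third closest of the 6020 probe sets.

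For WES1 the closest genes were AT5G54200 (0.22), AT5G63190 (0.23) and AT3G27770 (0.25). AT5G63190, for example, had 1595 ± 142 in DVL4 dex, 643 ± 153 in EV dex and 391 ± 14.5 in DVL4 mock leaves. For IAA29 the closest genes were farther off, AT2G36220 (0.58), the clock gene GI (0.59) and AT1G67750 (0.61). GI had a mean intensity of 477 ± 135 in DVL4 dex, 166 ± 31.1 in EV dex and 39.5 ± 9.72 in DVL4 mock leaves, in the same order of groups as IAA29. AT2G36220 had 1679 ± 108, 597 ± 116 and 100.4 ± 9.74 in the same order. These likenesses describe 9 arrays and were selected on the same values, and say nothing of shared function or control.

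**Figure D5:**
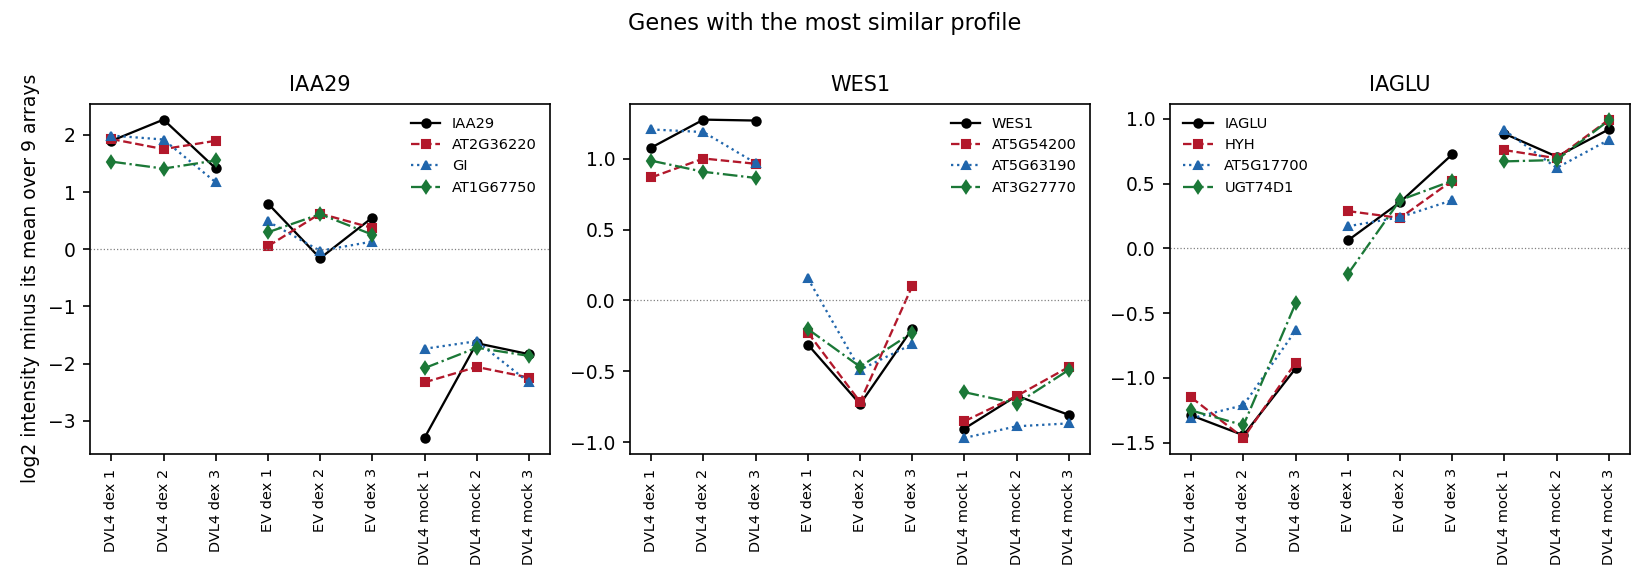
Log2 intensity minus its mean over the 9 arrays for IAA29, WES1 and IAGLU (black) and the 3 genes with the most similar profile of each, by array in the order DVL4 dex, EV dex, DVL4 mock; lines join replicates of 1 group and carry no order. IAA29 and its closest genes step down over the 3 groups, WES1 and its closest genes are high in DVL4 dex leaves, and IAGLU, HYH, AT5G17700 and UGT74D1 are lowest there.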

How the data were processed

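Per the labels, total RNA of pooled leaves was hybridized to ATH1 arrays, and the authors deposited linear intensity values computed with dChip (version, model and genome build not given in the sources used here). Between 1091 and 1275 values per array lay under 4.92 and were raised to it. The 64 control probe sets were left out, which left 22746. The gene table supplied gives 13513 of them 1 symbol, 503 several and 8730 none; the brightest probe set stood for a gene. Groups came from the sample titles.

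Differences were fitted with limma 3.58.1 in R 4.3.3 (lmFit, eBayes with trend=TRUE, group only, 2-sided, all 9 arrays). Summaries and plots used Python 3.11.15 and matplotlib 3.10.9. The fit was tested on simulated data. The precision is limited by the 3 arrays per group.

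The 6 genes, the lists (350 distinct entries, 29 measured, 2 of 11 lists with none) and the arrays of low 5′ signal (ratio under 0.5) were chosen with earlier results of these data known. Named were the 6 genes, all measured genes of the GH3, Aux/IAA, HD-Zip II and inactivation lists, and genes of other lists that passed. Also named were the 3 most similar profiles among probe sets of 1 named gene that were brighter than the median. Roles are general knowledge. Replicate numbers were checked for pairing: the deviations of arrays with the same number correlated between -0.15 and 0.14, not above 0.1 for every pair, so they were not taken to pair samples. Alternatives were other normalizations, floors, filters, variance models, array weights, a replicate block, the 5′ signal and leaving out arrays. A list by annotation text and the sequence description were not run, since the tables used hold no descriptions or sequences.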

Additional observations from a re-analysis of the deposited data

How the results depend on the processing

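Up to 21 alternatives were tried for each gene (20 for genes left out with the dim probe sets). IAA29, WES1 and IAGLU kept their direction in all of them and all 3 comparisons. The genes were chosen on these differences, so this is a description and lends them no support. Where the arrays of 2 groups did not overlap, leaving out an array could not reverse the direction. Alternatives that change only the variance model leave the log2 difference as it was. In DVL4 dex against EV dex the log2 difference of IAA29 ran from 1.18 to 1.68, that of WES1 from 1.46 to 1.73 and that of IAGLU from -1.76 to -1.43. Against DVL4 mock they ran from 3.6 to 4.45, from 1.95 to 2.06 and from -2.21 to -1.75. Whether these genes were past the threshold is a description only. IAA29, which was not past it in DVL4 dex against EV dex, was past it in 6 of 20 alternatives, 1 of them without DVL4 mock replicate 1. Without the arrays of low 5′ signal (1 DVL4 dex array left) IAA29 was no longer past it in either comparison with DVL4 mock, nor WES1 and IAGLU in DVL4 dex against EV dex. GH3.1, GH3.3 and HAT2 were past it in none. LBD16 passed in 20 of 20 in both comparisons with DVL4 mock, with adjusted p up to 0.0448 and 0.0415. UGT74D1 passed in 21 of 21 against DVL4 mock (adjusted p up to 0.0278) and in 15 of 21 against EV dex (0.00152 to 0.12), failing also with the compared groups alone (0.0621). The cause of these losses was not tested, beyond the fewer arrays. Averaging over probe sets could change nothing, since no auxin gene had more than 1.

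Of the other 23 auxin genes, the count lower in DVL4 dex against DVL4 mock was 1 and became 2 with no floor, 2 with robust=TRUE and 5 with array weights, and 1 to 2 with an array left out. The count higher was 2 and became 1 with low 5′ signal as a covariate, where ILR3 did not pass, and 3 with array weights. Without dim probe sets it was 1, since LBD16 was not in that fit. Without the arrays of low signal, which left 1 DVL4 dex array, LBD16 was at 1.53 and ILR3 at 0.24. Against EV dex the count higher was 0 and became 1 with median centring or trend=FALSE, and the count lower was 1 and became 0 with the compared groups alone or without the arrays of low signal, and 0 to 1 with an array left out. In EV dex against DVL4 mock the count higher was 1 and became 2 with array weights, and 1 to 2 with an array left out.

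Over all probe sets 5401 passed in DVL4 dex against DVL4 mock, 8999 with array weights, 1360 without the arrays of low signal and 3477 (without DVL4 dex replicate 1) to 6104 with an array left out. In DVL4 dex against EV dex 2317 passed, 1164 with the compared groups alone, 4 without the arrays of low signal and 993 (without DVL4 dex replicate 1) to 2259 with an array left out. In EV dex against DVL4 mock 1412 passed, 813 with trend=FALSE, 2218 with array weights, 892 with the compared groups alone, 614 without the arrays of low signal and 480 (without DVL4 mock replicate 3) to 2093 with an array left out. With the replicate block the counts were 5116, 2057 and 1256 in these comparisons, and the block changed no call of IAA29, WES1, IAGLU, UGT74D1, LBD16 or ILR3.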
